A study of Mus musculus with 8 samples.

Results

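The genes described here are 9 components of the Hedgehog pathway in embryonic mouse kidney, namely the ligand genes Shh and Ihh, the receptor gene Ptch1, the ligand-binding antagonist gene Hhip, the signal transducer gene Smo, the inhibitor gene Sufu and the transcription factor genes Gli1, Gli2 and Gli3. They were found on the array through the RefSeq accessions of its probes, which gave 13 of 56605 probes and 9 of the 22911 genes that could be named. All 13 probes and all 9 genes were bright enough to be tested, among 16013 genes tested in all. Mutant kidneys, in which Mdm4 was removed conditionally through a Hoxb7Cre transgene, were compared with wild-type kidneys (WT), both taken whole at embryonic day 14.5. The labels do not say which Cre or floxed alleles the wild-type embryos carried, nor whether an RNA came from 1 embryo or several. The Hoxb7 promoter is active in the ureteric bud and in the collecting duct and ureter epithelium that grow from it, so that nephrons, stroma and vessels of the mutant keep Mdm4. There were 4 mutant and 4 wild-type RNAs in 4 pairs, and each pair was hybridised on 2 arrays with the Cy3 and Cy5 dyes exchanged, so that n = 4 pairs. The labels do not say that the RNAs of a group came from separate animals, and the p-values reflect variation among pairs that may be technical. They give no sex either, and levels of sex-linked transcripts, given below, differed among the RNAs of each group.

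Hedgehog ligands bind the receptor Ptch1 and thereby release Smo, which moves into the primary cilium and frees the Gli transcription factors from Sufu. Gli2 and Gli1 then act mainly as activators, whereas Gli3 is cut into a repressor when no ligand is present. Ptch1, Hhip and Gli1 are themselves target genes of the pathway, and their transcripts are commonly read as a measure of its activity. In the embryonic mouse kidney Shh is made by the epithelium of the ureter and the medullary collecting ducts, and the surrounding mesenchyme, which becomes smooth muscle and stroma, responds to it.

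In each channel 60.7% to 70.2% of the gene probes' spots stood well above background, and 0 were saturated. Over 4 pairs, the standard error of all genes tested had a median of 0.071 on the log2 scale. The 2 dye-swapped arrays of a pair correlated with r of 0.45, 0.10, 0.41 and 0.55 over the probes kept in pairs 1 to 4, as a description across probes that share spots and RNA. All 8 kidney marker genes checked, among them Six2, Wt1, Pax2 and Eya1, were measured. Mdm4 had log2 ratios of mutant over wild type of -0.034, -0.060, -0.28 and -0.35 in pairs 1 to 4 (mean -0.18 ± 0.07, SE, limma adjusted p = 0.471). Whether its probe lies inside the deleted stretch was not known here, so Mdm4 is no check of the labels.

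The question put to each pair was which transcripts differ when Mdm4 is lost from the ureteric lineage. At the adjusted threshold of 0.05 none of the 9 Hedgehog genes was called by limma, where 0% of all 16013 genes were called and 1699 genes had an unadjusted p under 0.05. On the log2 scale of mutant over wild type, Ptch1, Hhip and Shh averaged about the same, at -0.51, -0.51 and -0.50, which is 0.70-, 0.70- and 0.71-fold. Gli1 was at -0.25 and Ihh at -0.23. Sufu was at -0.13, whereas Gli2 and Gli3 were at 0.13 and 0.10 and Smo at 0.023. The median over the 9 genes was -0.23, against a median of 0.010 over all genes tested.

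At an unadjusted p under 0.05 there were 4 Hedgehog genes lower in the mutant (Ptch1, Gli1, Shh and Ihh), where 3.6% of all genes tested were lower at that level. At the same level 0 of the 9 were higher, where 7.01% of all genes were. With median centring in place of loess 6 of the 9 had an unadjusted p under 0.05, and 2 of these were higher (Gli2 at 0.24 and Gli3 at 0.27), while all genes together had a median of 0.14 on that scale. The sign was negative in all 4 pairs for 3 of the genes (Ptch1, Gli1 and Sufu), as it was for 7.84% of all genes, and positive in all 4 pairs for 1 (Gli2), as it was for 12.1%. Since whole kidneys were measured, fewer cells of a type and less RNA per cell cannot be told apart in any of these values.

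**Figure D1:**
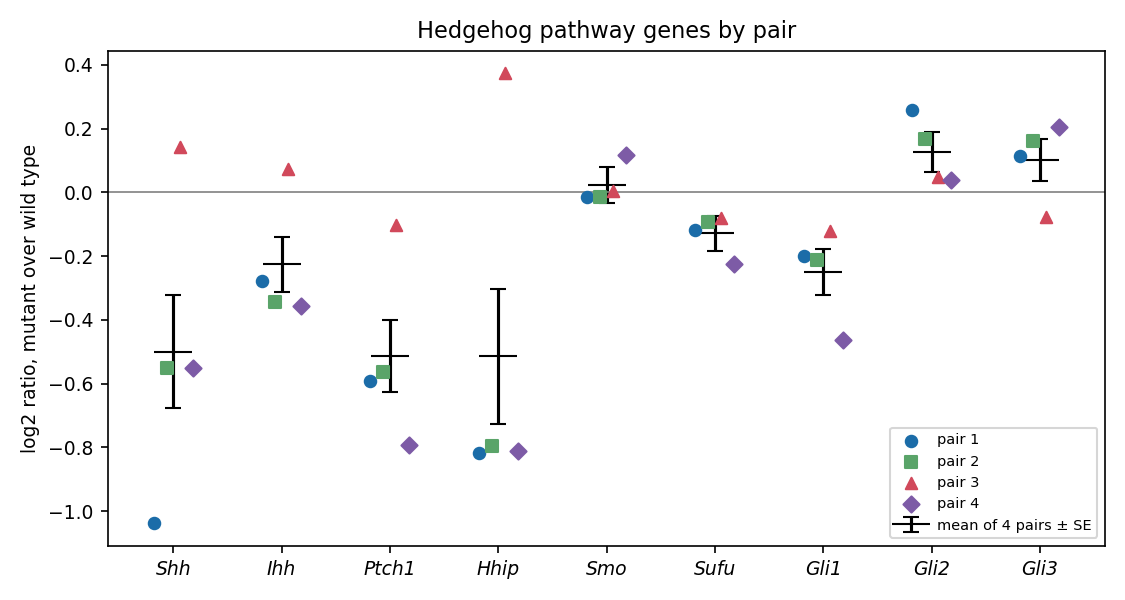
Log2 ratio of mutant over wild type of the 9 Hedgehog genes (vertical axis), with 1 symbol per pair (mean of its 2 dye-swapped arrays) and the mean of 4 pairs with its standard error in black. Shh, Ihh, Ptch1 and Hhip lie below 0 in pairs 1, 2 and 4, and pair 3 lies above the other pairs for each of these, at 0.37 for Hhip.

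Shh, on chromosome 5, encodes Sonic hedgehog. Its normalised log2 intensity was 7.85, 8.32, 8.22 and 7.87 in the mutant RNAs of pairs 1 to 4, against 8.89, 8.86, 8.08 and 8.42 in the wild-type RNAs. The mutants averaged 8.06 ± 0.24 and the wild types 8.56 ± 0.39 (SD, n = 4 each). The groups overlapped through the wild-type RNA of pair 3, which lay within the range of the mutants. The log2 ratios were -1.04, -0.55, 0.14 and -0.55 in pairs 1 to 4, with a mean of -0.50 ± 0.18 (SE, limma adjusted p = 0.442). The 2 dye orientations gave nearly the same mean for Shh, -0.51 when Cy5 carried the mutant RNA and -0.49 when Cy3 did. It was lower on 6 of 8 arrays, and both arrays of pair 3 were the exceptions.

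Ihh, on chromosome 1, encodes Indian hedgehog, the ligand best known from growing cartilage. Its log2 intensity was 7.68, 7.27, 7.27 and 7.10 in the mutant RNAs of pairs 1 to 4, against 7.96, 7.61, 7.19 and 7.45 in the wild-type RNAs, so that the groups overlapped. The ratio was -0.28, -0.34, 0.074 and -0.36 in pairs 1 to 4 (mean -0.23 ± 0.09, SE, limma adjusted p = 0.453). Unlike Shh, Ihh differed between the dye orientations, at -0.47 when Cy5 carried the mutant RNA and 0.019 when Cy3 did, and its mean weights both equally. In a fit of all 8 arrays the dye term of Ihh was -0.25 (limma adjusted p = 0.00185). Of 8 genes listed for cartilage and bone, 5 were measured and all 5 were higher in the mutant, with Col2a1 at 0.29 and a median of 0.29, and Col10a1 and Ibsp were well above background in 0 channels. Their summed log2 level was 12.4 to 14.3 in the mutants and 11.9 to 12.5 in the wild types. The upper mutant value came with Spp1, which was at 5.38 in pair 4, where the list's mean level in the mutant was 10.22, with 8.89 to 9.22 in the other mutants. The part of these genes in the Ihh value was not tested.

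Ptch1, the receptor and a target of the pathway, lies on chromosome 13. Its brighter probe had log2 intensities of 8.79, 8.56, 8.59 and 7.84 in the mutant RNAs of pairs 1 to 4, against 9.38, 9.13, 8.69 and 8.63 in the wild-type RNAs. The mutant was lower within every pair, while the groups overlapped across pairs. The ratios were -0.59, -0.57, -0.10 and -0.79 in pairs 1 to 4 (mean -0.51 ± 0.11, SE), and Ptch1 had the smallest p among the Hedgehog genes (limma adjusted p = 0.365). It was lower on 7 of 8 arrays, the exception being pair 3 with mutant RNA in Cy3. The size depended on the dye, with -0.84 when Cy5 carried the mutant RNA and -0.19 when Cy3 did, and the dye term in the fit of all 8 arrays was -0.32 (limma adjusted p = 0.00251). A second, dimmer Ptch1 probe was also lower in every pair but by less, at -0.25, -0.064, -0.045 and -0.42 (mean -0.20).

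Hhip, on chromosome 8, encodes a membrane protein that binds Hedgehog ligands and holds them away from the receptor, and it is a target of the pathway like Ptch1. Its log2 intensity was 7.62, 7.90, 7.74 and 7.35 in the mutant RNAs of pairs 1 to 4, against 8.44, 8.70, 7.36 and 8.17 in the wild-type RNAs. Pairs 1, 2 and 4 gave nearly equal ratios of -0.82, -0.80 and -0.81, and pair 3 gave 0.37. The mean was -0.51 ± 0.21 (SE, limma adjusted p = 0.470), and without pair 3 it was -0.81 ± 0.06 (limma adjusted p = 0.0924). With pair 1, 2 or 4 left out instead, it was -0.41, -0.42 and -0.41 (limma adjusted p = 0.537, 0.762 and 0.797). A second Hhip probe was likewise negative in pairs 1, 2 and 4 and positive in pair 3, with -0.83, -0.65, 0.41 and -1.13 and a mean of -0.55. The dye orientations gave -0.54 with mutant RNA in Cy5 and -0.49 with it in Cy3, so that Hhip, like Shh, gave nearly the same mean in both.

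**Figure D2:**
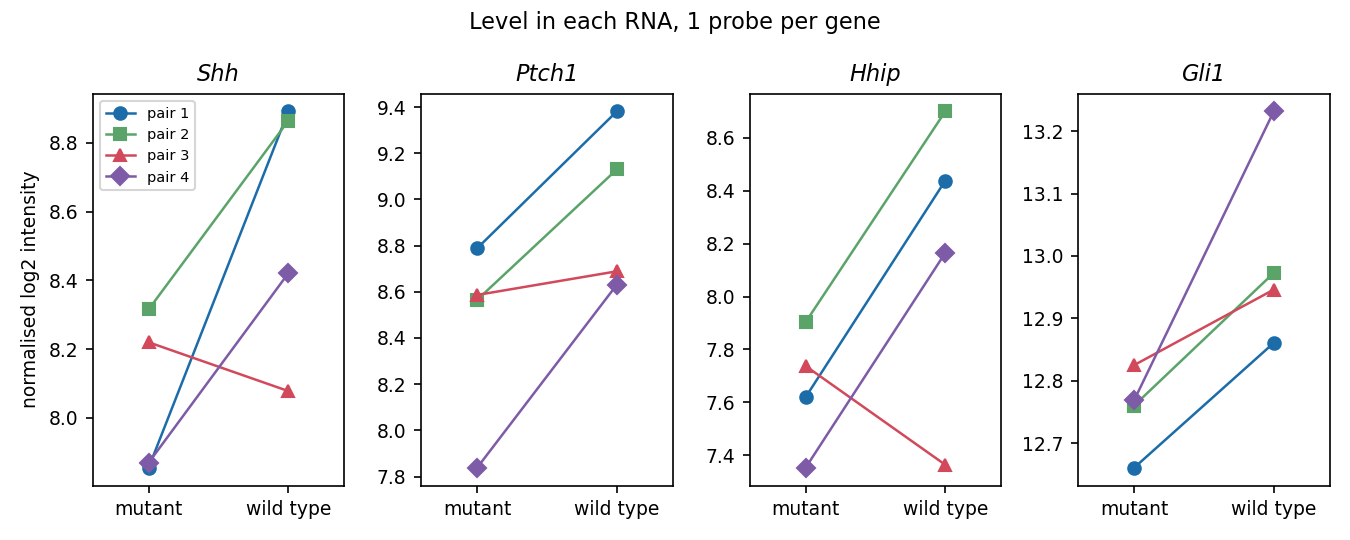
Normalised log2 intensity of 1 probe each of Shh, Ptch1, Hhip and Gli1 in the mutant (left) and wild-type (right) RNA, with a line joining the 2 RNAs of a pair. In pair 3 the wild-type RNA lies near the mutants for Shh (8.08) and Hhip (7.36), and for Gli1 all 4 mutant RNAs lie below all 4 wild-type RNAs. Each panel has its own axis, which does not start at 0.

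The promoters of Ptch1 and Hhip are shown because both are target genes and both were lower in pairs 1, 2 and 4. In pair 3 Ptch1 was at -0.10 and Hhip at 0.37. The sequences are the 250 bases before the annotated start in RefSeq's GRCm38.p6 tables, on the strand of the gene, with every CG dinucleotide in capitals. The Ptch1 window is chr13:63565736-63565985, minus strand, and the Hhip window is chr8:80058009-80058258, minus strand.
Ptch1: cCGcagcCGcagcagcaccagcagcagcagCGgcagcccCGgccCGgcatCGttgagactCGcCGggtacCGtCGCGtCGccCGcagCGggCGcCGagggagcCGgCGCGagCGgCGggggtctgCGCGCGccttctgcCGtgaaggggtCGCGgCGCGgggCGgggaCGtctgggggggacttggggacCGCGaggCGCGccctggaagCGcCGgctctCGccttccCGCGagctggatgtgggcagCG
Hhip: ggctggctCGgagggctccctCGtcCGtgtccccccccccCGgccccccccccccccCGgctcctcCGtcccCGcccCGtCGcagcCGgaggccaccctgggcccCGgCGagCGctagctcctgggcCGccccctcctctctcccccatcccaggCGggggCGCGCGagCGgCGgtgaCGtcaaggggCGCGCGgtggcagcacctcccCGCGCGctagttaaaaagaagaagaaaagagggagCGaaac
The Ptch1 window holds 41 CG dinucleotides and is 78.4% G and C, and the Hhip window holds 28 and is 76.0% G and C. Each of the 7 Hedgehog genes with an entry in the table (all but Shh and Gli1) was searched on both strands for GACCACCCA, the consensus bound by Gli proteins. It was found in 0 of the 7 windows, and in 0.225% of all 32851 windows of the same length. With 1 mismatch allowed it was again found in 0 of the 7, and in 5.79% of all windows. These letters are thus not in these windows, and no other sequence was searched.

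Smo, on chromosome 6, encodes the membrane protein that carries the signal once Ptch1 is bound. Its log2 intensity was 14.95, 14.96, 14.85 and 14.98 in the mutant RNAs and 14.97, 14.98, 14.85 and 14.86 in the wild-type RNAs of pairs 1 to 4. The groups overlapped, and the ratios were -0.013, -0.015, 0.0045 and 0.12, with a mean of 0.023 ± 0.056 (SE, limma adjusted p = 0.895). The 95% interval of the mean, not adjusted for the number of genes, ran from -0.11 to 0.16. The sign of the Smo mean turned when Cy5 carried the mutant RNA (-0.060) and without pair 4 (-0.0079).

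Sufu, on chromosome 19, encodes the protein that holds Gli factors inactive in the cytoplasm. The brightest of its 3 probes had log2 intensities of 10.47 to 10.77 in the mutant RNAs, against 10.57 to 10.88 in the wild-type RNAs, which overlapped. The ratios were -0.12, -0.093, -0.080 and -0.22 (mean -0.13 ± 0.06, SE, limma adjusted p = 0.486). The mutant was thus slightly lower in every pair on that probe, but the mean was -0.28 when Cy5 carried the mutant RNA and 0.024 when Cy3 did. The other 2 Sufu probes averaged -0.065 and -0.037, and the mean turned to 0.021 with median centring in place of loess, where the median of all genes was 0.14.

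Gli1, on chromosome 10, encodes an activator whose own transcription depends on the pathway. Its log2 intensity was 12.66, 12.76, 12.82 and 12.77 in the mutant RNAs of pairs 1 to 4, against 12.86, 12.97, 12.95 and 13.23 in the wild-type RNAs. All 4 mutant RNAs lay below all 4 wild-type RNAs, and among the probes tested for the 9 genes this was the only one without overlap. The dimmer Ptch1 probe also had no overlap, with 6.94 to 7.16 in the mutants and 7.17 to 7.37 in the wild types. For comparison, 1.57% of all genes tested were lower in the mutant with no overlap, and 3.22% were higher with no overlap. The mutants averaged 12.75 ± 0.07 and the wild types 13.00 ± 0.16 (SD, n = 4 each). The ratios were -0.20, -0.21, -0.12 and -0.46 (mean -0.25 ± 0.07, SE, limma adjusted p = 0.406). Gli1 was lower on 8 of 8 arrays, from -0.046 to -0.71, and was the only Hedgehog gene with the same sign on all arrays. With median centring it was at -0.079, where the median of all genes was 0.14.

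Gli2, on chromosome 1, encodes the main activator upstream of Gli1. Its log2 intensity was 9.42, 9.37, 9.28 and 9.17 in the mutant RNAs of pairs 1 to 4, against 9.16, 9.21, 9.23 and 9.14 in the wild-type RNAs. The ratios were 0.26, 0.17, 0.049 and 0.038 (mean 0.13 ± 0.06, SE, limma adjusted p = 0.523), positive in every pair. Gli2 was at 0.25 when Cy3 carried the mutant RNA and at 0.0071 when Cy5 did, with a dye term of -0.12 that cancels in the mean of both. Gli3, on chromosome 13, encodes the factor that is cut into a repressor. Its ratios were 0.12, 0.16, -0.078 and 0.21 in pairs 1 to 4 (mean 0.10 ± 0.07, SE, limma adjusted p = 0.606), with log2 intensities of 12.38 to 12.69 in the mutants and 12.35 to 12.48 in the wild types, which overlapped.

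**Figure D3:**
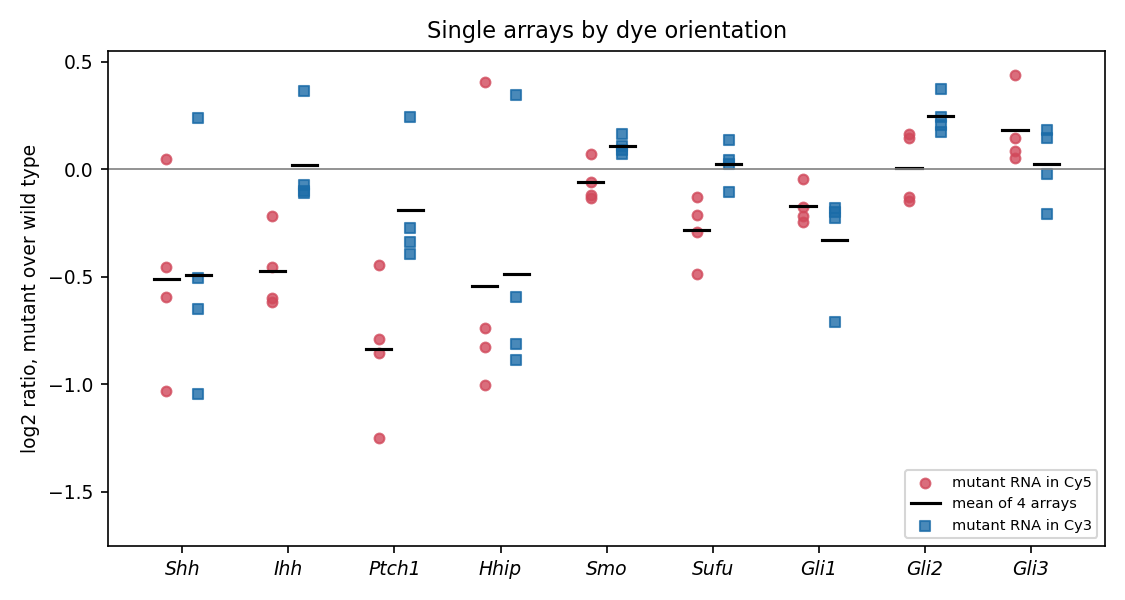
Log2 ratio of mutant over wild type of the 9 Hedgehog genes on single arrays, with mutant RNA in Cy5 (red circles) or in Cy3 (blue squares), and the mean of 4 arrays as a black line. The means of Shh and Hhip are nearly equal in both orientations, whereas those of Ihh (-0.47 and 0.019) and Ptch1 (-0.84 and -0.19) differ.

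Pair 3 was the 1 pair above 0 for Shh, Ihh and Hhip and the nearest to 0 for Ptch1 and Gli1, and it also went its own way in sex-linked transcripts. The mean ratio of 4 Y-linked genes (Eif2s3y, Kdm5d, Ddx3y and Uty) was 2.76, 1.31, -1.64 and 2.83 in pairs 1 to 4. In levels, these genes averaged 9.45, 7.76, 7.61 and 9.47 in the mutant RNAs, against 6.69, 6.45, 9.25 and 6.64 in the wild-type RNAs. Xist, expressed from the inactive X chromosome of females, was at 6.97, 9.57, 9.46 and 7.44 in the mutant RNAs, against 9.68, 9.80, 6.98 and 10.24 in the wild-type RNAs. The wild-type RNA of pair 3 was thus the 1 wild-type RNA with a high level of Y-linked genes and a low level of Xist. The mutant RNAs of pairs 2 and 3 had high Xist together with Y-linked levels above those of the wild-type RNAs of pairs 1, 2 and 4.

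In the ureteric trunk and duct epithelium, which includes the cells that make Shh, pair 3 was again the 1 pair above 0. Of 16 trunk and collecting duct markers, all measured, 15 were lower in the mutant, and the mean of the list was -0.63, -0.34, 0.21 and -0.38 in pairs 1 to 4. Its mean log2 level was 11.43, 11.54, 11.54 and 11.29 in the mutant RNAs, against 12.05, 11.87, 11.34 and 11.68 in the wild-type RNAs. The wild-type RNA of pair 3 lay within the range of the mutants in this list, as it did for Shh and for Hhip. The summed log2 level of the list was 16.80 to 17.09 in the mutants and 17.00 to 17.53 in the wild types. Beside that list mean, Shh was lower by more in pairs 1, 2 and 4. Single genes of the list had mean ratios from -0.70 to 0.027, a range that holds the Shh mean of -0.50. The part of the trunk genes in the Shh value was not tested. All 7 genes of the ureteric tip were lower as well, with a list median of -0.36. The list mean was -0.61, -0.050, -0.097 and -0.58 in pairs 1 to 4. Its value in pair 2 includes Ret, which was at 1.09 there and at -1.35, -0.42 and -0.57 in pairs 1, 3 and 4. The median of the list by pair was -0.47, -0.16, -0.068 and -0.57, so that by the median pair 3 was the nearest to 0.

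With the mean Y-linked ratio of a pair as a covariate, the values at no sex difference were -0.34 for Ptch1, -0.22 for Shh, -0.19 for Gli1, -0.16 for Hhip and -0.11 for Ihh. In that fit 1 of the 9 Hedgehog genes had an unadjusted p under 0.05, against 4 without the covariate. Without pair 3 the values were -0.81 for Hhip, -0.71 for Shh, -0.65 for Ptch1, -0.33 for Ihh and -0.29 for Gli1, and 5 of the 9 had an unadjusted p under 0.05. No Hedgehog gene passed the adjusted threshold of 0.05 by limma in either fit. With only pair 3 in the other direction, sex and that single pair cannot be told apart. In pairs 1, 2 and 4 the mutant RNA had the higher Y-linked level, so genotype and sex cannot be told apart there either. This also holds for the values without pair 3.

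**Figure D4:**
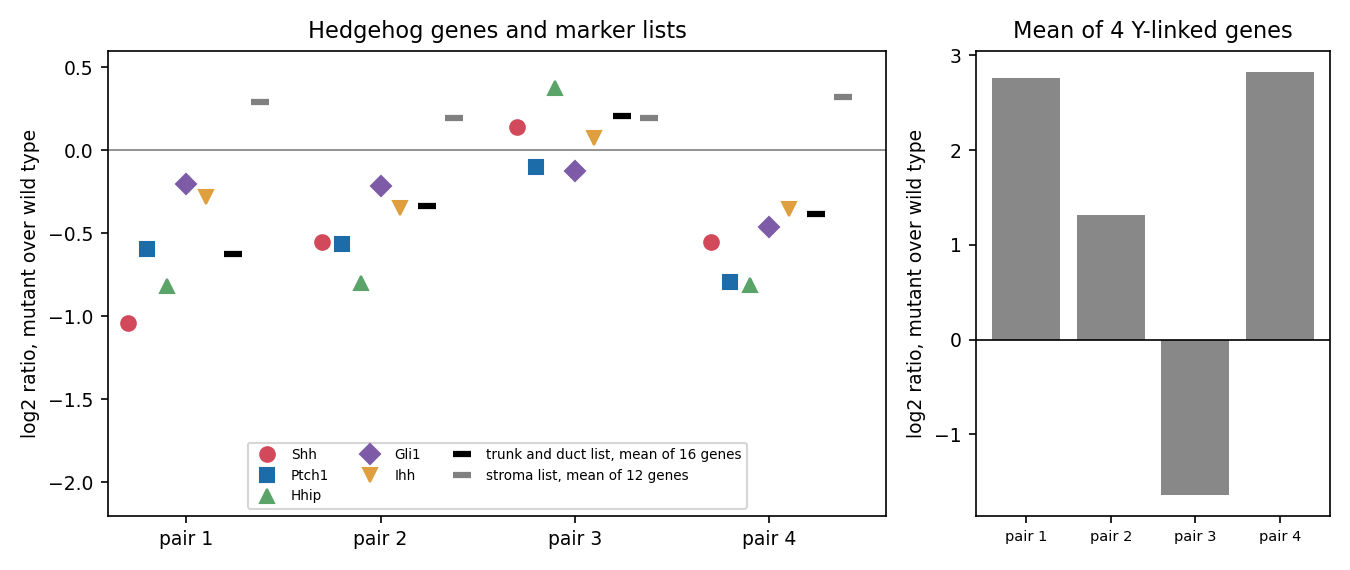
Left, log2 ratio of mutant over wild type of 5 Hedgehog genes in each pair, with the mean of the 16 ureteric trunk and collecting duct markers and of the 12 stroma markers as short dashes. Right, the mean ratio of 4 Y-linked genes, which is -1.64 in pair 3 and between 1.31 and 2.83 in the other pairs.

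The mesenchyme that receives the signal was described by 2 marker lists. Of 12 interstitial stroma markers 11 were higher in the mutant, with a list mean of 0.29, 0.20, 0.20 and 0.32 in pairs 1 to 4 and a summed log2 level of 17.57 to 18.05 in the mutants and 17.38 to 17.66 in the wild types. Of 10 genes of ureteric mesenchyme and smooth muscle, 3 were higher and 7 lower, with a list median of -0.040 and list means of -0.081, 0.030, 0.089 and -0.037 in pairs 1 to 4. Tbx18, which marks the mesenchyme around the ureter, was at 0.57 ± 0.11 (SE, limma adjusted p = 0.304), and Tagln, a smooth muscle gene, at -0.25 ± 0.11 (limma adjusted p = 0.487). The part of these lists in the Ptch1, Hhip and Gli1 values was not tested. The adrenal cortex, another tissue that makes Shh and lies beside the kidney, was represented by 5 measured genes of 8. All 5 were lower in the mutant, with a median of -0.085. Cyp17a1 was at -0.55 and lower on 8 of 8 arrays, and the other 4 lay between -0.16 and -0.0075. The list had a summed log2 level of 10.88 to 12.28 in the mutants and 11.59 to 12.54 in the wild types. In this sum Cyp17a1 weighed most, averaging 11.34 in the mutants and 11.88 in the wild types. The other 4 averaged between 7.45 and 8.86. Cyp11a1, Cyp11b1 and Hsd3b1 were too dim to be tested, and Cyp11b1 was well above background in 0 channels. The part of adrenal tissue in the Shh value was not tested.

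Markers of other cell types that a dissected kidney could hold were also measured. Their list medians were 0.0010 for 3 measured gut and endoderm genes of 7, 0.0096 for 4 measured gonad genes of 7 and 0.092 for 5 of 5 endothelial genes. Single genes averaged from 0.00038 to 0.22 in the gut list, -0.26 to 0.19 in the gonad list and -0.090 to 0.13 in the endothelial list. In pairs 1 to 4 the list mean was -0.060, -0.13, 0.30 and 0.18 for gut, and 0.12, 0.016, -0.21 and 0.016 for gonad.

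The wider pathway was described with 5 lists of 74 genes, of which 71 were measured. By limma 0 of the 71 passed the adjusted threshold. At an unadjusted p under 0.05, 6 were higher and 5 lower, where 7.01% of all genes tested were higher and 3.6% lower at that level, and the median of the 71 genes was 0.025. For the genes that make or release the ligands the median was 0.070. Scube2, which encodes a secreted protein that helps release lipid-modified ligand, was higher in every pair, at 0.22, 0.43, 0.31 and 0.35 in pairs 1 to 4 (mean 0.33 ± 0.06, SE, limma adjusted p = 0.304), and on 8 of 8 arrays. With the median of its probes Scube2 was at 0.11. Disp1, which exports the ligands from the cell, was at 0.13 ± 0.06, and the third ligand gene, Dhh, at 0.11 ± 0.08.

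Among receptors and co-receptors 4 of 7 genes were higher and 3 lower, with a median of 0.13. Gas1, a co-receptor, was higher in pairs 1, 2 and 4 and not in pair 3, at 0.39, 0.24, -0.075 and 0.60 (mean 0.29 ± 0.11, SE, limma adjusted p = 0.453). Lrp2, an endocytic receptor that also binds Shh, was at 0.36 ± 0.11 and positive in all 4 pairs.

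Genes of the cilium in which Smo acts were near 0 as a list, with a median of 0.0093 over 20 genes. Rpgrip1l, a gene of the ciliary transition zone, was at -0.14 ± 0.05 and lower on 8 of 8 arrays. Grk2, a kinase gene that acts on Smo, was at -0.17 ± 0.07, and Dync2h1, a motor of transport within the cilium, at 0.14 ± 0.09. The median over 17 kinases, ubiquitin ligases and other regulators of Gli processing was 0.035, with the kinase gene Dyrk2 at 0.23 ± 0.10, Gnas, which encodes a G protein subunit that raises protein kinase A activity, at 0.12 ± 0.07, and the casein kinase gene Csnk1e at -0.15 ± 0.08. Grk2 and Csnk1e were positive when Cy3 carried the mutant RNA, at 0.11 and 0.021.

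Of 18 measured targets of Gli proteins known from various tissues, 9 were higher and 9 lower, with a median of 0.033. Foxl1, a transcription factor gene of mesenchyme beside epithelium, was lower in every pair, at -0.32, -0.45, -0.10 and -0.68 in pairs 1 to 4 (mean -0.39 ± 0.10, SE, limma adjusted p = 0.397). Its values in pair 3 and pair 4 were the nearest to 0 and the lowest, as for Ptch1. By contrast Fgf10, a growth factor gene of mesenchyme, was at 0.21 ± 0.06 and higher on 8 of 8 arrays, and Wnt5a, a secreted signal, at 0.21 ± 0.06, both positive in all 4 pairs (limma adjusted p = 0.397 and 0.398). The target transcripts among the 9 genes, Ptch1, Hhip and Gli1, were thus all below 0 on average, while this longer list held as many genes above 0 as below it.

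**Figure D5:**
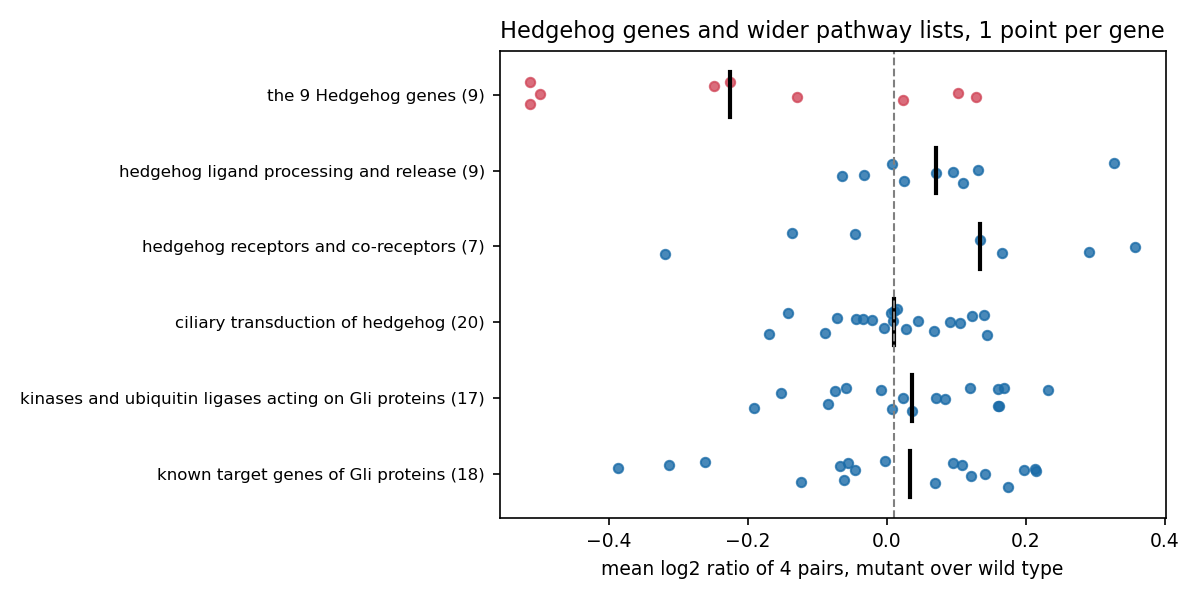
Mean log2 ratio of mutant over wild type of each gene, with the 9 Hedgehog genes in red at the top and 5 lists of the wider pathway in blue (number of genes measured in parentheses). Black bars are list medians, -0.23 for the 9 genes and between 0.0093 and 0.13 for the lists, and the dashed line is the median of all genes tested, 0.010.

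The genes outside these lists whose ratios were nearest to those of Ptch1 over the 4 pairs were Dync1i1, Tmem54 and Sstr3. Their root mean square differences from Ptch1 were 0.094, 0.11 and 0.11 on the log2 scale. Dync1i1, a dynein subunit gene, was at -0.66, -0.49, -0.037 and -0.65 in pairs 1 to 4. Sstr3, a somatostatin receptor gene, was at -0.59, -0.51, -0.15 and -0.58, and Tmem54 at -0.58, -0.35, -0.10 and -0.72. None of the 3 passed limma's test (adjusted p from 0.304 to 0.397).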

How the data were processed

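Whole-kidney RNA (100 ng per labelling, per the labels) was hybridised to 2-colour Agilent arrays. Intensities of spots and of local background, as medians, and processed intensities were deposited as the scanner software wrote them. That software was Agilent Feature Extraction, version 8.5.1.1 per the submitters' processing notes and version 10.7.3.1 per the file headers. Values in the deposited series table are the scanner files' log10 ratios (Cy5 over Cy3) to within 0.005. The log2 values were computed here from the deposited intensities with limma 3.58.1 in R 4.3.3.

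Background was corrected by normexp (offset 50), each array was normalised by loess, and control (3671 per array) and outlier spots (95 to 156) were left out. Ratios were turned to mutant over wild type and the 2 arrays of a pair averaged. The labels state that both arrays of a pair hold the same RNAs, which is the pairing used. Kept probes (34594) had 6 or more of a genotype's 8 channels well above background, probes were named through RefSeq accessions of GRCm38.p6 (32994 probes), and the brightest kept probe stood for a gene. Ratios were tested against 0 with lmFit and eBayes over 16013 genes, two-sided, with Benjamini-Hochberg adjustment and a threshold of 0.05. Levels are log2 intensities per channel after Aquantile normalisation between arrays, and are not compared between probes.

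The 9 genes and the lists were chosen with earlier results of these data known. The text names the 9 genes, the 3 genes of each pathway list with the smallest p, and the 3 genes nearest to the Hedgehog gene with the smallest p; single marker genes are given as values. Some genes of these lists are not reported here. The limma fit was tested on simulated data. Alternatives covered background correction, normalisation, the deposited table, the filter, the choice of probe, single pairs and dyes, a replicate block, a sex covariate and centring.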

Additional observations from a re-analysis of the deposited data

Results flagged for a closer look

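In 24 sets of 4 pair values, for the Hedgehog genes and the pathway genes with the smallest p in their lists, 2 held a pair far from the other 3, where chance gives about 1 in 20. Hhip was at 0.37 in pair 3, with the other pairs between -0.82 and -0.80. Smo was at 0.12 in pair 4, with the other pairs between -0.015 and 0.0045. The second Hhip probe was also positive in pair 3, at 0.41.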

How the results depend on the processing

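The 9 Hedgehog genes were recomputed under 16 alternatives. Of these 144 values, 139 kept the direction reported and 5 turned, and 0 passed the adjusted threshold of 0.05 (smallest limma adjusted p 0.0904, for Ptch1 with all 8 arrays and the replicate block). Many of the 144 could not turn. Changes of the filter and the fit of all 8 arrays left every mean as reported, here and for the 15 pathway genes below. The median of probes left genes with 1 probe unchanged. The series table and the processed signals gave nearly the same values. The 139 are thus not separate checks. Ihh turned to 0.019 and Sufu to 0.024 on Cy3-mutant arrays (mutant RNA in Cy3), where the median of the 9 genes was 0.019. Sufu turned to 0.021 with median centring. Smo turned to -0.060 on Cy5-mutant arrays, and ran from -0.0079 to 0.036 with 1 pair left out. Among the 15 pathway genes with the smallest p in their lists, 6 of 240 values turned: Csnk1e to 0.016 with median centring, 0.0096 with the median of its probes and 0.021 on Cy3-mutant arrays, Gnas to -0.075 on Cy5-mutant arrays, and Dhh to -0.012 and Grk2 to 0.11 on Cy3-mutant arrays. The number of Hedgehog genes with an unadjusted p under 0.05 was 4 as reported, ran from 2 (without pair 1, 2 or 4) to 5 (without pair 3) with 1 pair left out, was 1 with the sex covariate, and was 6 both with median centring (2 of them higher) and with each pair centred. On processed signals, the series table and Cy3-mutant arrays 1 was higher. Over all genes limma called 0, but 42 with median centring, all higher, and 39 with all 8 arrays, a dye term and the pair as a random replicate block, of which 38 were higher. The cause was not tested. The block changed the call of 0 Hedgehog genes. With the scanner software's processed signals Shh, Ihh, Ptch1 and Hhip were at -0.69, -0.46, -0.66 and -0.76, and with the median of a gene's probes Ptch1 was at -0.36, Sufu at -0.066, Scube2 at 0.11, Disp1 at 0.050, Dyrk2 at 0.092, Gnas at 0.023, Fgf10 at 0.11, Wnt5a at 0.13 and Rpgrip1l at -0.082. The probe tested for each of the 9 genes was well above background in all 16 channels.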
